A study of Sus scrofa with 14 samples.

Results

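The 7 genes described here belong to the collagen-rich matrix between uterine cells: the collagen chains COL3A1, COL5A2, COL6A2 and COL6A3, the proteoglycan DCN, the glycoprotein TNC and the crosslinking enzyme LOXL1. They were chosen with the difference between the study's groups already known, COL3A1 as higher and the other 6 as lower in high prolificacy. All probe sets annotated with 1 of these symbols and no other were taken, which gave 9 of the 23999 probe sets tested, for 7 of the 6765 genes that such probe sets name. The tissue was pregnant uterus from 5 sows of high and 9 sows of low prolificacy, all Iberian x Meishan F2 animals killed at days 30 to 32 of gestation, the fifth in each sow. Each sow gave 1 biological replicate, frozen at once, whose RNA was labelled with biotin and hybridised to an Affymetrix porcine array. The part of the uterine wall that was sampled is not given in the sources used here.

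Fibrillar collagens are rope-like proteins that carry the tension of a tissue; type III is abundant in distensible organs such as the uterus, and type V starts new fibrils and sets their width. Collagen VI forms beaded filaments that tie cells to this fibre network, decorin coats the fibrils, tenascin-C is deposited where tissue is remodelled or under load, and lysyl oxidases crosslink elastin and collagen. In the uterus such matrix is laid down by stromal fibroblasts and by the smooth muscle cells of the myometrium, and it loosens and rebuilds as the wall grows in pregnancy.

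Levels are log2 values of a probe set, a group of short probes against 1 transcript, so a difference of 1 is 2-fold. Differences are high minus low prolificacy. Levels of different probe sets depend on their probes and are not compared. Over all 23999 probe sets, limma called 7.85% between the groups at an adjusted p under 0.05, 3.50% higher and 4.35% lower in high prolificacy. The array medians lay between 5.72 and 5.84, and no detection calls were used. Where a gene had more than 1 probe set, the one with the highest mean over the 14 arrays stands for it. In bulk tissue, fewer cells of a type and less RNA per cell cannot be told apart.

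COL3A1, the chain of fibrillar collagen III, was the member with the higher mean in high prolificacy. Its levels in the high prolificacy arrays, high 1 to high 5, were 6.89, 8.06, 8.18, 6.41 and 7.66. In low prolificacy its lowest level was 5.78, its median 6.26 and its highest 7.00. High 2, high 3 and high 5 lay above every low array, while high 1 and high 4 lay within the low range, so the groups overlapped. COL3A1 averaged 7.44 ± 0.77 over the high arrays (SD, n = 5) and 6.29 ± 0.35 over the low arrays (SD, n = 9), which puts the difference at 1.15 or 2.22-fold. Only 1 probe set stood for it, so no other could be set beside this value. Probe sequences were not used here, so whether this probe set measures the COL3A1 transcript was not tested. That limit holds for every COL3A1 value given here, and for the contrast of COL3A1 with the other 6 genes.

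COL5A2, a chain of the fibril-starting collagen V, differed the other way. Its levels in high 1 to high 5 were 7.15, 5.41, 6.21, 6.82 and 5.31. Its low prolificacy levels had a minimum of 6.34, a median of 7.32 and a maximum of 8.60. The same 3 arrays that were highest for COL3A1, high 2, high 3 and high 5, lay below every low array for COL5A2. High 1 and high 4 again lay within the low range. The means were 6.18 ± 0.82 over the high arrays (SD, n = 5) and 7.48 ± 0.68 over the low arrays (SD, n = 9), which puts the difference at -1.30. A dimmer COL5A2 probe set averaged 4.91 in high and 5.00 in low prolificacy, a difference of -0.088, and with the mean of both probe sets the COL5A2 difference was -0.69. COL3A1 and COL5A2 are next to each other in the pig gene table of assembly Sscrofa11.1.

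The collagen VI chains, COL6A2 and COL6A3, are built into the same filament, and in both every high array lay below every low array. COL6A3 had levels of 10.92, 8.75, 8.54, 10.22 and 9.23 in high 1 to high 5. In low prolificacy its levels ran from 11.96 through a median of 12.25 to 12.81. The gap between the groups exceeded the whole range of the 9 low arrays, and high 1 and high 4 were again the high arrays closest to them. The COL6A3 means were 9.53 ± 1.01 over the high arrays (SD, n = 5) and 12.23 ± 0.25 over the low arrays (SD, n = 9), which puts the difference at -2.70 or 6.50-fold lower.

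COL6A2 had a narrower gap. Its levels were 8.37, 7.83, 7.96, 8.63 and 8.72 in high 1 to high 5. The low prolificacy levels had a minimum of 8.79, a median of 9.35 and a maximum of 10.50. High 5 and low 8 nearly touched, at 8.72 and 8.79. COL6A2 averaged 8.30 ± 0.40 over the high arrays (SD, n = 5) and 9.49 ± 0.54 over the low arrays (SD, n = 9), which puts the difference at -1.19.

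DCN encodes decorin, a small leucine-rich proteoglycan that binds collagen fibrils and TGF-beta. It was the member with the smallest difference. Its levels were 12.34, 11.67, 11.55, 12.51 and 12.00 in high 1 to high 5, and in low prolificacy they had a minimum of 12.29, a median of 12.57 and a maximum of 12.94. High 2, high 3 and high 5 lay below every low array, and high 1 and high 4 did not. The means were 12.01 ± 0.42 over the high arrays (SD, n = 5) and 12.58 ± 0.18 over the low arrays (SD, n = 9), which puts the difference at -0.56. The other DCN probe set was near the bottom of the scale in both groups, with means of 2.17 in high and 2.13 in low prolificacy. With the mean of both probe sets the DCN difference was -0.26.

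TNC, tenascin-C, a large glycoprotein that modulates cell adhesion, had the largest difference of the 7 genes. Its levels were 6.35, 3.71, 4.29, 4.23 and 4.82 in high 1 to high 5. In low prolificacy they ran from 7.35 through a median of 8.66 to 9.96. No array of 1 group reached the other group, and 4 of the 5 high arrays lay below the lowest array median of 5.72. TNC averaged 4.68 ± 1.01 over the high arrays (SD, n = 5) and 8.53 ± 0.84 over the low arrays (SD, n = 9), which puts the difference at -3.85 or 14.4-fold lower. Without detection calls, it is not known whether the dim high arrays were above background.

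LOXL1, a lysyl oxidase needed for elastic fibre renewal in mice, had levels of 6.83, 4.33, 4.84, 6.87 and 5.11 in high 1 to high 5. Its low prolificacy levels had a minimum of 6.87, a median of 7.42 and a maximum of 9.12. High 4 and low 8 were level to 2 decimals, and the other 4 high arrays lay below all low arrays. The means were 5.60 ± 1.18 over the high arrays (SD, n = 5) and 7.61 ± 0.64 over the low arrays (SD, n = 9), which puts the difference at -2.02.

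**Figure D1:**
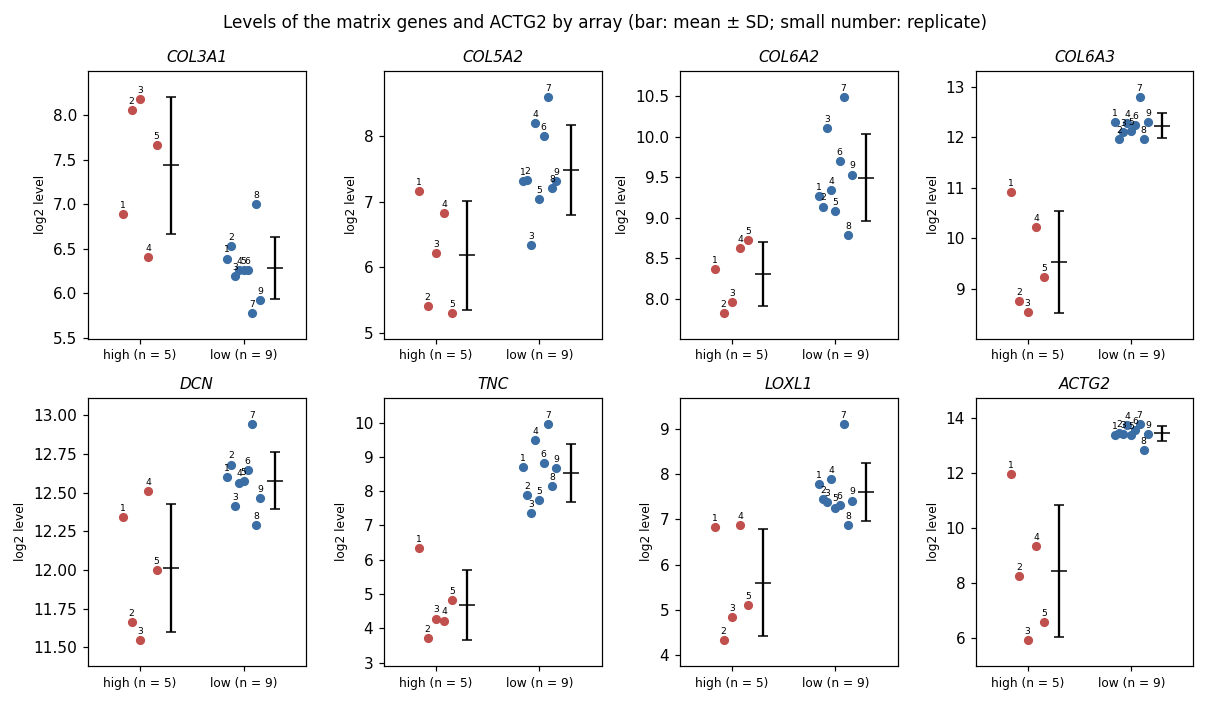
Log2 level of the brightest probe set of each of the 7 genes and of ACTG2 in each array, high prolificacy (5 arrays) to the left of low prolificacy (9 arrays), with bars at the group means ± SD. COL3A1 is higher in high 2, high 3 and high 5 than in any low array, the other genes are lower there, and the groups do not overlap in COL6A2, COL6A3, TNC and ACTG2.

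The groups did not overlap in 3 of the 7 genes, COL6A2, COL6A3 and TNC, and over all probe sets they did not overlap in 2.64%, with the high arrays below in 1.74% and above in 0.904%. The genes were chosen on this contrast, so nothing is read from that count. The arrays inside each group are described next. The rule for choosing these genes already named their relation to ACTG2 within groups, so this is no separate support for the contrast. For the same reason, the p values of the 7 genes against ACTG2 describe a relation named beforehand and do not test it anew. Among the low arrays, low 7 was the highest in 6 of the 7 genes and the lowest in the remaining one, COL3A1. Low 8 was the lowest low array for COL6A2, DCN and LOXL1 and the highest for COL3A1.

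ACTG2, the gamma actin of smooth muscle, was used to follow muscle transcripts in the same arrays. It was at 11.98, 8.26, 5.92, 9.34 and 6.57 in high 1 to high 5, while its low prolificacy levels had a minimum of 12.85, a median of 13.42 and a maximum of 13.79. The high arrays were far apart and the low arrays close together. High 1 and high 4, the arrays with the most ACTG2 in the high group, were also the high arrays with the most COL5A2, COL6A3, DCN and LOXL1 and the least COL3A1. The ACTG2 means were 8.41 ± 2.41 over the high arrays (SD, n = 5) and 13.45 ± 0.27 over the low arrays (SD, n = 9). A dimmer ACTG2 probe set differed by -1.39 and its groups overlapped.

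Within groups, the level of every probe set was regressed on ACTG2 with limma, with the group as a factor. Of 23998 probe sets, 64 or 0.267% were called at an adjusted p under 0.05 (0.154% positive, 0.113% negative), and COL6A3 was among them. Its level changed by 0.38 ± 0.064 (SE, 14 arrays) per unit of ACTG2, with a limma adjusted p of 0.0253. The relation to ACTG2 was named when the genes were chosen, so this p is a description. Without high 1, the array with the most ACTG2 in its group, limma's adjusted p for COL6A3 was 0.39 and 0 probe sets were called (2028 at an unadjusted p under 0.05). Without high 3, the array with the least, it was 0.108 and 8 were called. The 5 high arrays held 97.5% of the within-group sum of squares of ACTG2, so this slope describes mainly them.

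The other 6 genes were not called in that fit. LOXL1 had a slope of 0.40 (limma adjusted p = 0.193) and COL5A2 one of 0.28 (limma adjusted p = 0.32). DCN had a slope of 0.13 (limma adjusted p = 0.247) and TNC one of 0.32 (limma adjusted p = 0.364). The slope of COL6A2 was close to 0, at 0.061 (limma adjusted p = 0.77). COL3A1 was the only one of the 7 with a negative slope, at -0.25 ± 0.080 (SE, limma adjusted p = 0.208).

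Among the 9 low arrays alone, ACTG2 covered less than 1 unit, and limma called 0 of 23998 slopes (2844, or 11.9%, at an unadjusted p under 0.05). The signs were those of the pooled fit, negative for COL3A1 at -1.0 ± 0.31 (SE, limma adjusted p = 0.272) and positive for the rest. The positive slopes were 0.53 for DCN, 0.63 for COL6A3, 1.27 for COL6A2, 1.55 for COL5A2, 1.74 for LOXL1 and 1.87 for TNC, with limma adjusted p between 0.272 and 0.427. Whether a slope differed between the groups was tested as an interaction, in which limma called 0 of 23998 probe sets (2826, or 11.8%, at an unadjusted p under 0.05). For COL3A1, for instance, the slopes by group were -0.23 ± 0.077 in high and -1.0 ± 0.48 in low prolificacy (SE). Over the 7 genes the limma adjusted p of the interaction lay between 0.399 and 0.868.

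As correlations over the 9 low arrays, 7 relations with ACTG2 were computed. COL3A1 had an r of -0.784 (exact permutation p = 0.02, two-sided) and a rho of -0.617 (exact permutation p = 0.0857). DCN had an r of 0.777 (exact permutation p = 0.022) and a rho of 0.60 (exact permutation p = 0.0968). COL5A2 had an r of 0.62 (exact permutation p = 0.0729) and a rho of 0.80 (exact permutation p = 0.0138). The r of the other 4 genes lay between 0.604 for TNC and 0.743 for LOXL1 (exact permutation p between 0.0521 and 0.0808). Low 7 and low 8 were the arrays farthest from the ACTG2 median. Without them r was 0.0615 for COL3A1, 0.257 for DCN, 0.251 for COL6A3 and -0.0145 for COL6A2, so these relations rested on those arrays. For COL5A2, TNC and LOXL1 it was 0.805, 0.721 and 0.518 without them. Against the mean of 12 smooth muscle markers, ACTG2 included, r over the 9 low arrays was -0.733 for COL3A1. For the other genes it ran from 0.44 for DCN to 0.835 for COL6A3, and for ACTG2 itself it was 0.609. The dimmer ACTG2 probe set was lowest in low 3, at 7.15, and stood at 8.14 in low 8. All 7 relations kept their sign with the list mean, though their strength varied, as for DCN at 0.777 and 0.44. No correlation of the 7 genes with the dimmer ACTG2 probe set was computed. Its slope on COL3A1 in the low arrays was 0.090 (limma adjusted p = 0.972), where the brighter one had -0.61 (limma adjusted p = 0.474). The high group, with 5 arrays, has too few for a correlation.

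**Figure D2:**
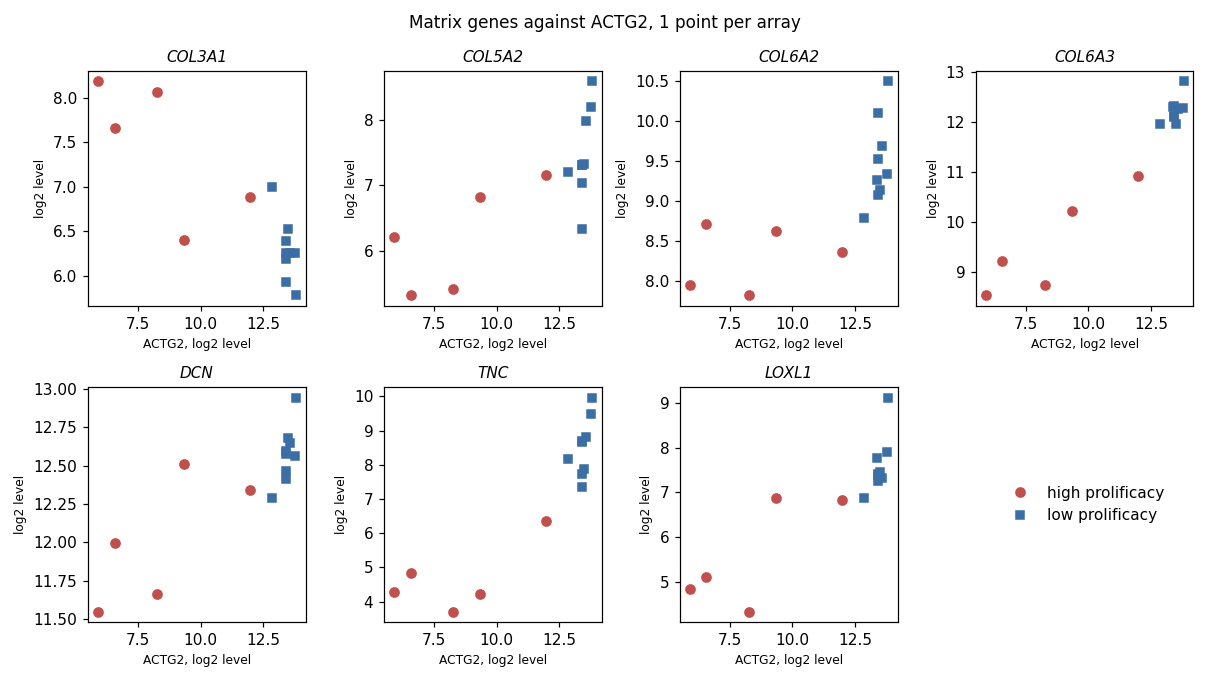
Log2 level of each of the 7 genes (vertical axes) against the log2 level of ACTG2 (horizontal axes) in the 14 arrays, high and low prolificacy in different colours. COL3A1 is lowest in the high arrays with the most ACTG2, high 1 and high 4, where COL6A3, DCN and LOXL1 are at their highest for that group, and the low arrays lie close together on the ACTG2 axis.

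COL3A1 was next set against the other 6 members among the 9 low arrays. The rule that chose the genes named COL3A1 against the others and their relation to ACTG2 within groups. The exact permutation p values here are therefore a description and no separate support, and they are not adjusted for the number of relations. All 6 correlations were negative, and 3 of the 6 stayed negative without low 7 and low 8. That with COL6A2 was the strongest, with an r of -0.792 (exact permutation p = 0.0113) and a rho of -0.90 (exact permutation p = 0.00203), and r was -0.454 without low 7 and low 8. COL6A3 followed with an r of -0.782 (exact permutation p = 0.021) and a rho of -0.70 (exact permutation p = 0.0433), and r was -0.567 without those arrays. LOXL1 and DCN had r of -0.683 and -0.596, and without low 7 and low 8 these turned to 0.208 and 0.743. TNC had an r of -0.461, or -0.151 without them, and COL5A2 one of -0.352, which turned to 0.101. In limma no slope on COL3A1 passed in the low arrays (0 of 23998, with 2152, or 8.97%, at an unadjusted p under 0.05), and for the 6 genes the limma adjusted p lay between 0.391 and 0.787.

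The other 6 genes varied together over the 9 low arrays, though COL6A2 did so little without low 7. All 15 correlations among them over the 9 low arrays were positive, with a median r of 0.718 and a range from 0.301 to 0.937. All 6 genes were chosen with a relation to ACTG2 named beforehand, so the p values of these pairs are an unadjusted description. The closest pair was COL5A2 and TNC, with an r of 0.937 (exact permutation p = 0.000146) and a rho of 0.90 (exact permutation p = 0.00203), and r was 0.843 without low 3 and low 7. With the 2 arrays farthest from the median of 1 gene of each pair left out, the 15 values lay between 0.0795 and 0.843. These arrays share low 7, which was the highest for all 6 genes. The loosest pair was COL5A2 and COL6A2, with an r of -0.233 without low 7. With that array left out, COL6A2 had an r of -0.0981 with TNC, 0.059 with DCN, 0.291 with LOXL1 and 0.403 with COL6A3.

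The genes most like each member were sought over the deviations of all 14 arrays from their group means, as the best of 6764 genes, so these values describe and are not tested. COL3A1 was most like PSAT1, an enzyme of serine synthesis (r = 0.925), SCNN1B, a subunit of the epithelial sodium channel (r = 0.902), and ARG2, the mitochondrial arginase (r = 0.893). None of these is in the matrix lists, and COL3A1 here means the single probe set whose target was not tested. At the opposite end, looked at after the values were seen, SERPINH1, the chaperone that folds procollagen, was the third most opposite gene to COL3A1 (r = -0.928). COL5A1, the partner chain of COL5A2, ranked 10 from that end, DCN 11, LOXL1 15 and COL6A3 20. Leaving out 1 array at a time kept the r of COL3A1 with SERPINH1 between -0.946 and -0.878.

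**Figure D3:**
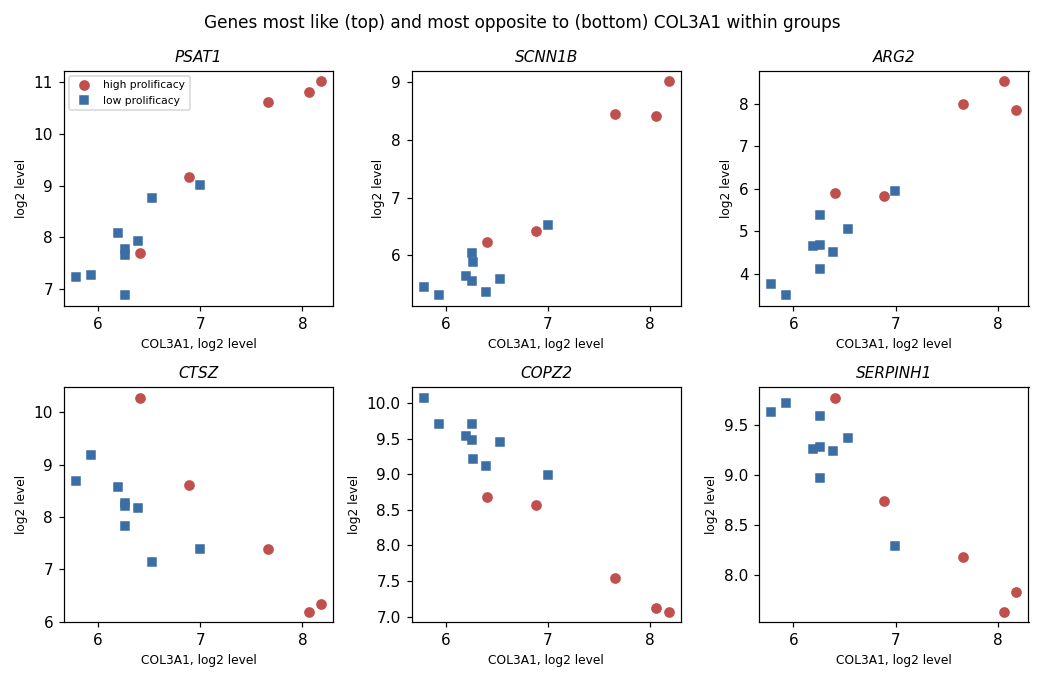
Log2 level of the 3 genes most like COL3A1 (top) and the 3 most opposite to it (bottom) on the vertical axes against the log2 level of COL3A1 on the horizontal axes, 1 point per array, high and low prolificacy in different colours. PSAT1, SCNN1B and ARG2 run upward with COL3A1 and CTSZ, COPZ2 and SERPINH1 downward; as deviations from the group means, r is 0.925 for PSAT1 and -0.928 for SERPINH1.

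For the other members, COL6A3 was most like ACTA2, the alpha actin of smooth muscle (r = 0.969), APP, the amyloid precursor protein (r = 0.967), and SPARC, a collagen-binding glycoprotein (r = 0.943). The SD of COL6A3 was 1.01 in high and 0.25 in low prolificacy, so these values describe mainly the high arrays. In the 9 low arrays alone they were 0.935, 0.959 and 0.785. DCN was most like COL5A1 (r = 0.946), the basement membrane collagen COL4A2 (r = 0.94) and SPARC (r = 0.93). COL5A2 was most like FAP, a protease of activated fibroblasts (r = 0.909), FN1, fibronectin (r = 0.909), and LOC100514494 (r = 0.89).

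LOXL1 was most like LAMC1, a laminin chain (r = 0.923), MRAS, a small GTPase (r = 0.922), and COPZ2, a coat protein of transport vesicles (r = 0.909). TNC was most like DMPK, the myotonic dystrophy kinase (r = 0.856), CALD1, the actin-binding caldesmon (r = 0.853), and C1QTNF3 (r = 0.853). COL6A2 was most like SORBS3, the adhesion adaptor vinexin (r = 0.958), PHLDA3 (r = 0.953) and PQLC2 (r = 0.928).

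Other genes of the matrix were taken from 9 lists, 80 genes on the array besides the members. In limma, 2 of the 80 rose and 22 fell in high prolificacy, 30% in all, where 10.8% of all genes with 1 probe set each were called, 5.34% higher and 5.42% lower. The median difference over the 80 genes was -0.485, against 0.0728 over all 6765 genes. Of the 80, 38 had an unadjusted p under 0.05, as had 5073 of all 23999 probe sets. The count of 24 was 13 without high 2 and 13 without high 3.

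Of 5 other fibrillar collagens 0 were called, with a median difference of -0.557, a count too small to set apart from the 10.8% called over all genes. COL1A2, a chain of collagen I, differed by -1.03 (limma adjusted p = 0.25), COL5A1 by -1.18 (limma adjusted p = 0.132) and COL5A3, another collagen V chain, by -0.56 (limma adjusted p = 0.109). COL5A1 and COL5A3 were the 2 genes of this list with an unadjusted p under 0.05. No collagen VI chain other than the members was analysed here. The 4 other non-fibrillar genes, COL7A1, COL8A1, COL10A1 and COL17A1, differed by -0.12 to 0.15, and 0 were called, with 0 at an unadjusted p under 0.05. Another COL8A1 probe set, nearly as bright at a mean of 5.08, differed by -0.56 and was not called either (limma adjusted p = 0.119).

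The basement membrane list had 4 of 6 genes lower, and its median difference was -1.60. COL15A1, a collagen linking basement membrane to stroma, was at 8.56, 7.10, 6.98, 9.01 and 7.70 in high 1 to high 5, against 9.36 to 11.02 in low prolificacy. The groups did not overlap, and the difference was -2.37 (limma adjusted p = 0.00136). LAMC1 differed by -1.71 (limma adjusted p = 0.00717), but its 3 dimmer probe sets, at -1.38, -1.04 and -1.03, missed the threshold (limma adjusted p between 0.0546 and 0.126).

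Among matrix proteoglycans, the family of decorin, 2 of 6 genes fell. PRELP, which anchors basement membranes to collagen, differed by -2.21 (limma adjusted p = 0.00301), and ASPN, asporin, which competes with decorin for collagen, by -3.03 (limma adjusted p = 0.0176). The call of ASPN was lost without high 2, high 3 or high 5. Of the matricellular and adhesive glycoproteins, to which TNC belongs, 9 of 14 fell, with a median difference of -1.50. The thrombospondins THBS3 and THBS2 differed by -1.56 and -2.18 (limma adjusted p = 0.00297 and 0.00425). A dimmer THBS3 probe set was called at -1.45 (limma adjusted p = 0.00471), and the dimmest, at -0.036, was not (limma adjusted p = 0.938).

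Of 8 genes of elastic fibres and lysyl oxidases, the group of LOXL1, 1 fell: EFEMP2, fibulin-4, which recruits lysyl oxidase to elastin, differed by -1.44 (limma adjusted p = 0.0119). Of its dimmer probe sets, that at -1.29 was called (limma adjusted p = 0.0243) and that at -0.75 was not (limma adjusted p = 0.0854). Of 11 genes of collagen biosynthesis, 1 fell, the prolyl hydroxylase subunit P4HA2, with a difference of -0.99 (limma adjusted p = 0.0105), while its other probe set, at -0.84, missed the threshold (limma adjusted p = 0.162). Of 17 matrix turnover genes, 2 fell: the collagen-cleaving cathepsin CTSK differed by -0.81 (limma adjusted p = 0.0367) and FAP by -1.52 (limma adjusted p = 0.0481). Their calls were each lost in 10 of the 14 fits that left out 1 array, which included those without high 2 and high 5. The shares called in the elastic fibre, biosynthesis and turnover lists were 12.5%, 9.09% and 11.8%. These are near the 10.8% called over all genes, so nothing is read from these counts.

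Among 9 collagen and matrix receptors, 2 rose and 3 fell. ITGA2, the collagen-binding integrin alpha-2 chain, was at 6.63, 7.91, 6.67, 5.83 and 9.43 in high 1 to high 5, against 3.08 to 5.90 in low prolificacy, a difference of 2.61 (limma adjusted p = 0.0105). Only high 4 reached into the low range. DDR1, a collagen-binding receptor kinase of epithelia, differed by 0.97 (limma adjusted p = 0.0238), a call lost without high 2, high 3 or high 5. ITGA5, a fibronectin receptor chain, and its partner ITGB1 differed by -2.37 and -1.54 (limma adjusted p = 0.00807 and 0.0147). The call of ITGB1 was lost without high 3. Dimmer probe sets of ITGA2 and ITGA5, at differences of 0.61 and -1.28, missed the threshold (limma adjusted p = 0.213 and 0.0672).

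**Figure D4:**
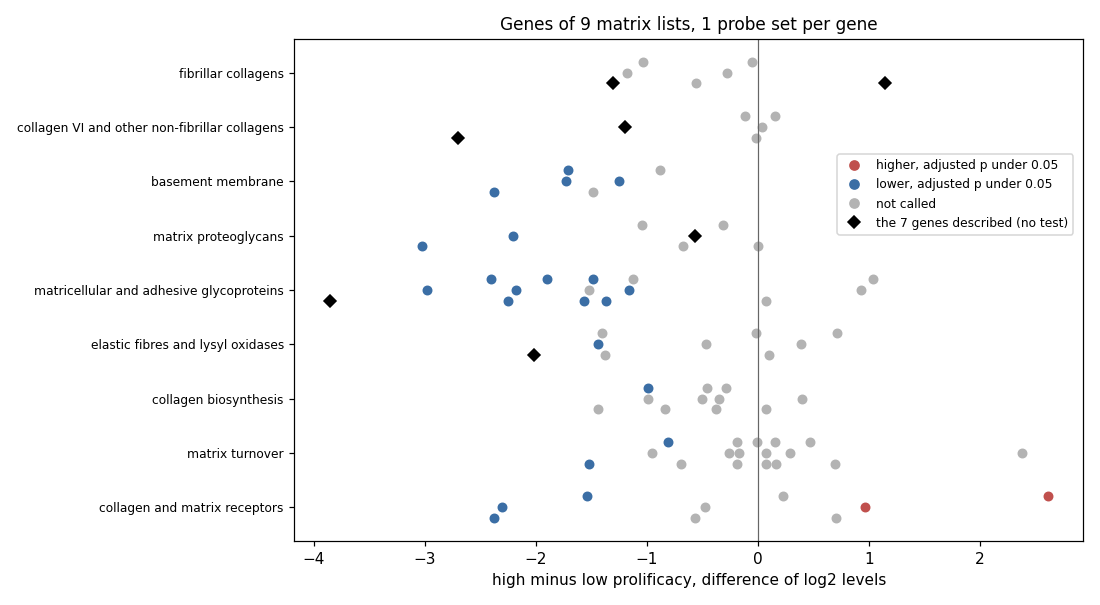
Difference of log2 levels, high minus low prolificacy, of each gene of the 9 matrix lists, 1 point per gene, coloured by limma's call at an adjusted p under 0.05, with the 7 members as diamonds. The fibrillar collagen row has COL3A1 at 1.15 to the right and COL5A2 at -1.30 to the left, and 22 other matrix genes are called to the left and 2 to the right.

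Set against COL3A1 over within-group deviations, the 80 other matrix genes had a median r of -0.489, against 0.0443 over all genes. Of the 80, 38 or 47.5% lay below -0.5 and 5 or 6.25% above 0.5, where all genes had 8.34% below and 8.35% above. Set against ACTG2 they had a median r of 0.385, against -0.121 over all genes, with 30 or 37.5% above 0.5 and 5 or 6.25% below -0.5, where all genes had 7.58% above and 14.5% below. These are correlations across 14 arrays that share 1 normalisation, given as a description. The 5 high arrays held 97.5% of the within-group sum of squares of ACTG2, so the values against ACTG2 describe mainly them.

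Markers of smooth muscle, epithelium and stroma were all measured, the muscle filament gene DES at means of 7.52 in high and 12.29 in low prolificacy, the keratin KRT8 at 11.68 in high and 9.21 in low, and the stromal filament gene VIM at 12.26 in high and 12.51 in low. The muscle and epithelial lists moved with the results above. Of 12 smooth muscle markers, 12 fell, and the list mean (log2 levels centred per gene) ran from -3.78 to -0.019 in high and from 0.83 to 1.94 in low prolificacy. Of 14 epithelial markers, 8 rose and 0 fell, and the list mean ran from 0.63 to 1.61 in high and from -2.35 to 0.16 in low prolificacy. Low 7, the array with the highest level of 6 members, had the highest smooth muscle and the lowest epithelial mean of all arrays. Of 6 stromal fibroblast markers that are not matrix genes, 0 were called, with list means from -0.71 to 0.66 in high and from -0.45 to 0.48 in low prolificacy.

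Over the 14 within-group deviations, COL3A1 had an r of 0.602 with the epithelial mean, -0.597 with the smooth muscle mean and -0.664 with the stromal fibroblast mean. With the trophoblast mean its r was -0.738, and with the fetal mesenchyme and yolk sac mean -0.68. In the 9 low arrays alone these were 0.662, -0.733, -0.175, -0.145 and 0.0132. COL6A3 had an r of 0.875 with the smooth muscle mean, or 0.835 in the low arrays alone. With the stromal fibroblast mean DCN had an r of 0.803 and LOXL1 of 0.711, and in the low arrays alone 0.576 and 0.457. With the trophoblast mean DCN had an r of 0.725, COL6A3 of 0.668 and LOXL1 of 0.638, and in the low arrays alone 0.14, 0.118 and 0.0739. The trophoblast list, with 0 of 8 markers called, ran from -0.95 to 2.46 in high and from -0.83 to 1.12 in low prolificacy, and was highest in high 4, the high array with the least COL3A1. The fetal mesenchyme and yolk sac list, with 0 of 6 called, ran from -0.80 to 3.38 in high and from -1.0 to 0.84 in low prolificacy. It was also highest in high 4. Its genes on the array were AFP, TTR, APOA1, AHSG and ALB, which encode plasma proteins, and IGF2. Of 10 endothelial markers 1 rose and 1 fell, and of 8 leukocyte and 4 red blood cell markers 0 were called. The part of these cell types in the members' values was not tested.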

How the data were processed

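Transcript levels of 14 uterus samples were used, 5 of high and 9 of low prolificacy, 1 array per sow. The authors deposited log2 levels per probe set; the submitters' processing notes name RMA, and its version is not stated there. The method equalises the arrays, so a change common to most transcripts cannot be seen. Precision depends on how many arrays a group has.

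Of 24123 probe sets, 124 controls were left out. Platform annotation gave 1 symbol to 10069 of the rest, several to 198 and none to 13732. Group differences, slopes on ACTG2 and COL3A1 and the interaction were fitted with limma 3.58.1 in R 4.3.3 (lmFit, eBayes, two-sided) over all probe sets, with Benjamini-Hochberg adjustment and a threshold of 0.05. The fits of the group difference and of the slopes on ACTG2 were tested on simulated data, and the interaction and the slopes on COL3A1 were not. The simulated noise was independent between probe sets, so variation shared by many probe sets was not covered. Correlations over the low arrays and their exact permutation tests were computed in Python 3.11.15, with ranks from scipy 1.17.1. Correlations of within-group deviations were computed in R. ACTG2 or COL3A1 itself was left out where it was the regressor.

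The members, lists and tests were chosen with earlier results of these data known. Named were the members and ACTG2, the 2 genes with the smallest p per direction among those called in each matrix list, which gave 14, and the 3 genes most like each member. Alternatives were another normalisation (cyclic loess, subtracted array medians), array weights, other probe sets or filters, an adjusted p of 0.10, the mean of the smooth muscle or epithelial list in place of ACTG2, the replicate number as a block and leaving out each array.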

Additional observations from a re-analysis of the deposited data

Results flagged for a closer look

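Of 50 sets of levels of 1 gene in 1 group, 6 held an array far from the others; chance gives about 1 such set in 20. COL6A3 was at 12.81 in low 7, where the next highest low array was at 12.31. LOXL1 was at 9.12 in low 7, and the next highest low array was at 7.90. CTSK was at 10.001 in low 7, against 9.39 in the next array. ACTG2 was lowest in low 8, at 12.85, against 13.38 in the nearest array. In low 3, ASPN was the lowest of the low arrays at 5.35, with the nearest at 7.71, and DDR1 was the highest at 9.23, with the nearest at 8.36.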

How the results depend on the processing

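The direction of the difference between high and low prolificacy was kept by all 7 genes in every alternative run. When 1 array was left out, the COL3A1 difference lay between 0.96 and 1.41. LAMC1 and P4HA2 lost their calls with the probe set of largest interquartile range (adjusted p = 0.0741 and 0.162). The DCN difference moved to -0.26 with the mean of its probe sets. The 1885 probe sets called in limma were 3060 with array weights, 2925 at an adjusted p of 0.10 and 944 to 2650 when 1 array was left out (944 without high 3, 1002 without high 2). The r of same-numbered arrays was over 0.1 in 3 of 5 pairs (0.147, 0.14 and 0.421) and -0.0663 and -0.247 in the others. Numbers 1, 2 and 4 were closest to their own number, a hint from the data and not the design, and the numbers were not taken to pair the sows. With the replicate block, which keeps 10 arrays, 35 were called, and 361 in the same 10 arrays without it; higher calls were 44.6% of 1885 and 17.1% of 35. The 24 other matrix genes called were 0 with the replicate block, 4 in those 10 arrays without it, and 13 to 29 when 1 array was left out. With the block, 36 of the 80 had an unadjusted p under 0.05, as had 3197 of all 23999 probe sets. The fit in 10 arrays without the block was chosen after seeing the data. Slopes on ACTG2 within low prolificacy gave 0 calls, but 36 with cyclic loess, 22 with array weights, 3 at 0.10 and 0 to 20 when 1 array was left out (20 without low 3). The 64 slopes called within groups were 2915 with array weights, 263 at 0.10, 448 with the epithelial list mean in place of ACTG2 and 0 to 188 when 1 array was left out (99 without high 2, 188 without low 3). The interaction gave 4 with cyclic loess and 1760 with array weights, and slopes on COL3A1 746 with array weights and 0 to 1 when 1 array was left out. With array weights the within-group slopes of COL3A1, DCN, TNC and LOXL1 passed as well (limma adjusted p = 0.0157, 0.0149, 0.0346 and 0.0159). The array weights stopped before convergence in 2 of 5 fits. With the epithelial mean in place of ACTG2, the within-group slopes had the opposite sign: COL3A1 0.39, COL5A2 -0.55, COL6A2 -0.33, COL6A3 -0.41, DCN -0.18, TNC -0.66 and LOXL1 -0.63. None of these passed (limma adjusted p between 0.216 and 0.449). The epithelial mean is another index, which itself ran opposite to ACTG2 within groups (r = -0.366). The COL6A3 interaction of -0.25 turned to 0.065 with the smooth muscle mean and to 0.049 without low 7, the upper end of a range from -0.62 to 0.049 over the fits that left out 1 array. The cause of these changes was not tested. With 14 arrays and no detection calls, small differences and dim probe sets are least certain.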

Other observations

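At the opposite end from COL3A1, 2 further genes, chosen after their values were seen, stood before SERPINH1 over the within-group deviations of the 14 arrays. CTSZ, a lysosomal cathepsin, had an r of -0.943 and COPZ2 one of -0.942. COPZ2 was also among the 3 genes most like LOXL1. CTSZ averaged 7.76 in high and 8.16 in low prolificacy (limma adjusted p = 0.771). The dimmer ACTG2 probe set had a slope of 0.090 on COL3A1 in the low arrays (limma adjusted p = 0.972), while the brighter one had a slope of -0.61 (limma adjusted p = 0.474).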
